A study of Homo sapiens with 5 samples.

Results

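The loci of the platelet-derived growth factor (PDGF) family were examined in chromatin immunoprecipitation followed by sequencing (ChIP-seq) of the human tumour lines RH18 and RD. Both lines were derived from rhabdomyosarcoma without a fusion oncogene, a cancer of muscle-like cells. The members were the peaks that overlapped 5 windows of the hg19 genome, 3 around the ligand genes PDGFA, PDGFB and PDGFC and 2 around the receptor genes PDGFRA and PDGFRB. They comprised 81 of 46408 regions of histone H3 acetylated at lysine 27 (H3K27ac) in RH18, 35 of 43159 H3K27ac regions in RD and 8 of 11136 peaks of the myogenic transcription factor MYF5 in RH18, or 124 of 100703 peaks in all. The windows lay at 0.46 to 0.61 Mb of chromosome 7 (PDGFA), 39.57 to 39.69 Mb of chromosome 22 (PDGFB), 157.63 to 157.94 Mb of chromosome 4 (PDGFC), 55.04 to 55.21 Mb of chromosome 4 (PDGFRA) and 149.44 to 149.58 Mb of chromosome 5 (PDGFRB). Members were chosen by the position of listed peaks, and these loci were selected on results of the same lists. Their peaks are therefore a description, and no test was made of them.

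Cells of both lines were grown in DMEM with 10% serum and fixed in 1% formaldehyde for 12 minutes. RH18 was profiled for H3K27ac and for MYF5, RD for H3K27ac only, and each of these groups was 1 library. Spread between replicates could not be measured, and line and library cannot be told apart. The 2 input DNA samples, 1 per line, were not analysed here, apart from any part they had in the authors' peak calls. The muscle identity of the lines was not checked against marker loci, since gene positions on hg19 were not used here.

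PDGF ligands are secreted dimers that act on receptor tyrosine kinases of the cell surface. PDGF-A binds the alpha receptor, encoded by PDGFRA. PDGF-B binds the alpha receptor and also the beta receptor, encoded by PDGFRB, and PDGF-C is released in a latent form that must be cleaved before it acts mainly on the alpha receptor. In skeletal muscle the alpha receptor is known as a marker of fibro-adipogenic progenitors, and the beta receptor as a marker of pericytes. H3K27ac marks active promoters and enhancers. MYF5 belongs to the basic helix-loop-helix proteins, which bind E-boxes, sites of the form CANNTG, and the myogenic members are known to favour CAGCTG.

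Promoter sequences were taken from RefSeq (GRCh38.p14), which held 7 starts for 3 of the 5 members, namely PDGFA, PDGFRA and PDGFRB. The table runs from 250 bases before a start to 50 bases after it. The sequences chosen are the single PDGFRB start, the PDGFRA start that shares its CAGCTG, and the PDGFA start with most E-boxes. They are written 5′ to 3′ along the gene, and capitals mark each match to CANNTG, which reads the same on both strands. Their positions are on another build than the peaks and were not set against them.
PDGFRB, chr5:150155796-150156095, minus strand: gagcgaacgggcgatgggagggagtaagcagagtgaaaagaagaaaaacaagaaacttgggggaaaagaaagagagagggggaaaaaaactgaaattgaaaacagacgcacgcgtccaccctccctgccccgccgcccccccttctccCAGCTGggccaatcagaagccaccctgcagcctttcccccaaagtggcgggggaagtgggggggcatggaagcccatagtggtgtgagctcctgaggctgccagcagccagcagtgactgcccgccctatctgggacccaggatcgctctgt
PDGFRA, chr4:54233710-54234009, plus strand: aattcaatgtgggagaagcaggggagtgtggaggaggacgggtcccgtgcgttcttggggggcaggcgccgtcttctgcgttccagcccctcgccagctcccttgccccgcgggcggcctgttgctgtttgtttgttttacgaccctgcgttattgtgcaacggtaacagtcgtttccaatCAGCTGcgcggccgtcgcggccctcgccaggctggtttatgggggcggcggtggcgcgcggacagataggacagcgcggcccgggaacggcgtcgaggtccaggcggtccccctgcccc
PDGFA, chr7:520177-520476, minus strand: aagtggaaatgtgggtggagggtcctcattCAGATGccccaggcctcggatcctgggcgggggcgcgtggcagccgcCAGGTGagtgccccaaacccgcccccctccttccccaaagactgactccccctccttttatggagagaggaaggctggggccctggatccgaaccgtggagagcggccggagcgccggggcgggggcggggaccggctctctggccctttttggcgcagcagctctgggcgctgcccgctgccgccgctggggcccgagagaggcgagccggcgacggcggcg

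The PDGFRB promoter held 1 E-box, CAGCTG, whose first base lay 102 bases before the start. The PDGFRA start shown also held a single CAGCTG, 69 bases before the start, while the other PDGFRA start held CAGTTG and CAAATG. The PDGFA start shown held CAGATG and CAGGTG, 220 and 173 bases before the start. Of the other 3 PDGFA starts, 1 had CACCTG, 1 had CAGGTG and 1 had no match. A CANNTG was found in 68.7% of all 35116 promoters of the table, and a CAGCTG in 17.9%. A match to these letters is not a binding site, and the sequences under the MYF5 peaks themselves were not analysed here.

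By the RefSeq gene order, PDGFRB lies between CSF1R and CDX1, PDGFRA between GSX2 and KIT, PDGFB between CBX7 and RPL3, and PDGFC between CTSO and GLRB, while PRKAR1B follows PDGFA. Regions were therefore described by window and were not assigned to a gene.

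Each peak was described by the fold enrichment of its summit over the local background, as deposited by the authors, and by the number of sequenced tags at its summit, worked out from that fold and its p-value. A tag counted as 0.832 units of pileup in RH18 H3K27ac but as 0.273 in RD, which compresses folds more in RD. Folds were therefore not compared between the lines, and the standing of a peak is given as its percentile by fold within its own list. Over the whole lists the median fold was 14.0 in RH18 H3K27ac, 8.0 in RD H3K27ac and 11.2 in MYF5, and summits rested on a median of 57, 85 and 42 tags, in that order. The lowest −log10 p-value listed was 7.09 in RH18 H3K27ac, 5.0 in RD H3K27ac and 9.09 in MYF5, so a region absent from a list may still carry signal below these ends.

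Listed acetylation of the PDGF loci was spread unevenly over the family and over the lines. RH18 had more sequence inside listed regions than RD at PDGFA, PDGFB and PDGFRB. By this length the lines were close at PDGFC, and neither line had a listed region at PDGFRA. Listed regions covered 58.3 kb of the PDGFA window in RH18 and 7.73 kb in RD, a ratio of 7.53. At PDGFB they covered 19.9 kb in RH18 and 2.91 kb in RD, a ratio of 6.85. At PDGFC they covered 2.27 kb in RH18 and 2.72 kb in RD, a ratio of 0.835. At PDGFRB they covered 22.6 kb in RH18 and 1.22 kb in RD, a ratio of 18.5. Over the whole lists RH18 regions covered 1.54 times the bases of RD regions, so that the ratio at PDGFC was below, and those at the other 3 acetylated loci above, that of all regions. These ratios have no replicate check. Listed length also depends on where a list ends and on the worth of a tag, both of which differed between the lines. It was therefore not read as an amount of acetylation. Median summit tags in RH18 and RD were 44 and 104 at PDGFA, 35 and 56 at PDGFB, and 44 and 71.5 at PDGFRB. At PDGFC they were 83 and 48. Over the whole lists they were 57 and 85. Depth per library is unknown and the numbers of regions differed, so these medians were not read as an amount of acetylation either.

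**Figure D1:**
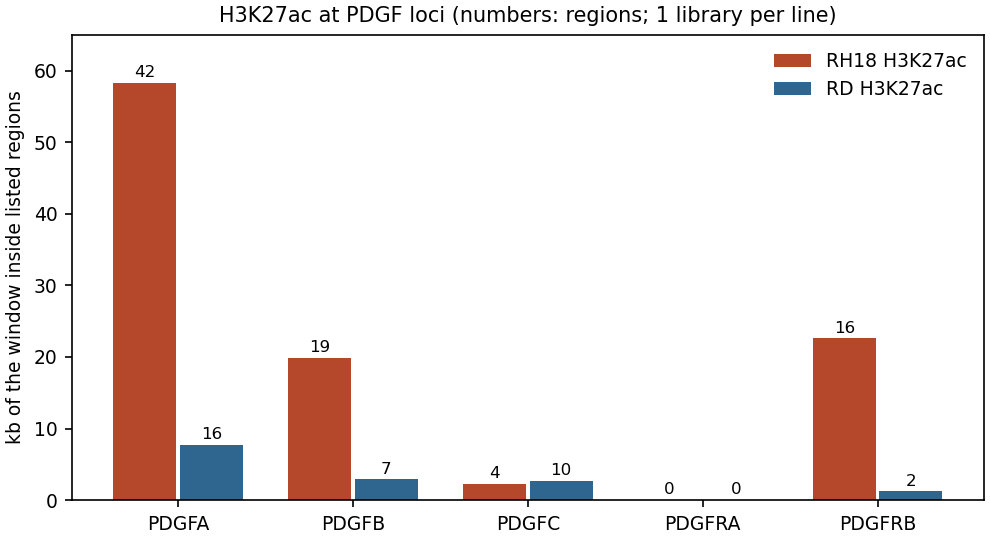
Length of each PDGF window inside listed H3K27ac regions (kb, vertical axis) in RH18 and RD, with the number of regions above each bar and 1 library per line. RH18 bars exceed RD bars at PDGFA (58.3 against 7.73 kb), PDGFB and PDGFRB (22.6 against 1.22 kb), while PDGFC has 2.27 kb in RH18 and 2.72 kb in RD, and PDGFRA has none.

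Of the 81 RH18 regions in the windows, 15 (18.5%, exact Clopper-Pearson 95% interval 10.8 to 28.7%) overlapped an RD region by at least 1 bp, while 45.1% of all RH18 regions did. Of the 35 RD regions, 27 (77.1%, 59.9 to 89.6%) overlapped an RH18 region, while 60.0% of all RD regions did. Where 50% of both regions had to overlap, 4 RH18 regions (4.94%, 1.36 to 12.2%) and 4 RD regions (11.4%, 3.20 to 26.7%) did so, beside 25.6% of all RH18 regions and 27.5% of all RD regions. The RD share was thus above that of its list at 1 bp and below it at 50%. At PDGFA no region of either line met the 50% rule. All 25 RD regions at PDGFA, PDGFB and PDGFRB overlapped an RH18 region by at least 1 bp, and the 8 that did not were all at PDGFC. RH18 regions wider than 1 kb numbered 32 of 81 (39.5%) in the windows, beside 19.2% over the list, and RD regions wider than 1 kb numbered 3 of 35 (8.57%), beside 8.38%. Several RD regions could thus fall into 1 RH18 region. Counted in bases, the sequence of RD regions inside RH18 regions was 7733 of 7733 bp at PDGFA, 2908 of 2910 bp at PDGFB, 1220 of 1220 bp at PDGFRB and 697 of 2719 bp (25.6%) at PDGFC. Over the whole lists 59.6% of RD bases lay inside RH18 regions. The intervals cover counting error only. They treat regions as independent, though at PDGFA 37 of the 42 RH18 regions joined within 10 kb into a single stretch. No departure from the share of a list was tested.

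PDGFA had the most sequence inside listed H3K27ac regions of the 5 windows in either line. RH18 had 42 regions there, with folds of 3.8 to 86.7 and a median of 9.50, and RD had 16, with folds of 3.66 to 13.2 and a median of 6.21. In RH18, 6 of the 42 stood in the top 10% of the list by fold and 26 below its middle, and in RD none of the 16 stood in the top 10%. The highest of RH18 was a 7636 bp region at 499174 to 506809 (fold 86.7, 354 tags, percentile 99.3), which was also the widest. It took in 3 RD regions and 2 MYF5 summits. Next came the region at 575813 to 580874 (fold 78.9, 366 tags), with 2 RD regions and 1 MYF5 summit, and the region at 510818 to 513403 (fold 78.0, 279 tags), with 1 RD region and no MYF5 summit. All of these stood above the 98th percentile of their list.

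In RD, the PDGFA region of highest fold lay at 508816 to 509606 (fold 13.2, 121 tags, percentile 81.5), inside the RH18 region at 507995 to 509811 and with its summit 30 bp from the RH18 summit. The second lay at 578102 to 579124 (fold 12.6, 211 tags), with its summit 65 bp from that of an RH18 region, and the third at 504429 to 505362 (fold 11.0, 117 tags). The region at 578102 had the most tags of the RD window and led it by −log10 p-value as well. The widest, of 1128 bp, lay at 511144 to 512271 (fold 6.26, 134 tags), and its summit was 37 bp from that of its RH18 counterpart. By tags, the top 10% held 8 RH18 regions and 2 RD regions of the window.

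The local background, over which the fold is taken, differed between the lists at PDGFA. In RH18, 2 of 42 regions had a background of at least 4 times the lowest of the list, beside 10.1% of all RH18 regions, with a range of 1.19 to 7.58 times. In RD, 13 of 16 regions reached 4 times the lowest, beside 31.9% of all RD regions, with a range of 2.47 to 9.62 times. Among MYF5 peaks 1 of 5 did, beside 4.91% of that list. Percentiles by fold were lower than percentiles by tags for 20 of the 42 RH18 regions and 14 of the 16 RD regions. For example, the RD region at 577333 had a fold of 8.49 at percentile 54.8 and 183 tags at percentile 91.1. The part of the background in the difference between the lines was not tested. At PDGFB, PDGFC and PDGFRB, no region of either line reached 4 times the lowest. Percentiles by fold were lower than by tags for 6 of 19 RH18 and 1 of 7 RD regions at PDGFB. At PDGFRB this held for 2 of 16 RH18 and 1 of 2 RD regions, and at PDGFC for none of either line. The same counts over the whole lists were not worked out, so nothing is read from those of the windows. Fold combines tags and background, so these counts also restate the background and are not a separate observation.

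Of the 34 RH18 regions at PDGFA without an RD counterpart, that of highest fold lay at 607675 to 609983 (fold 36.2, 198 tags), 2227 bp from the nearest RD region. It lay just inside the upper end of the window. The next RH18 region began 169 bp beyond that end (610169 to 619297, fold 41.7), and the next RD region 2210 bp beyond it (fold 4.21). On the lower side the nearest RH18 region outside the window was 86.4 kb away and the nearest RD region 243 kb away. Regions joined within 10 kb formed a stretch of 91.8 kb in RH18 (491629 to 583478) that held 37 regions and 5 MYF5 summits. It ranked 8 of 20111 such stretches by the sum of fold times width. The same sequence in RD broke into 4 stretches, the first of which (499916 to 512271, 12.4 kb) ranked 1450 of 17620.

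**Figure D2:**
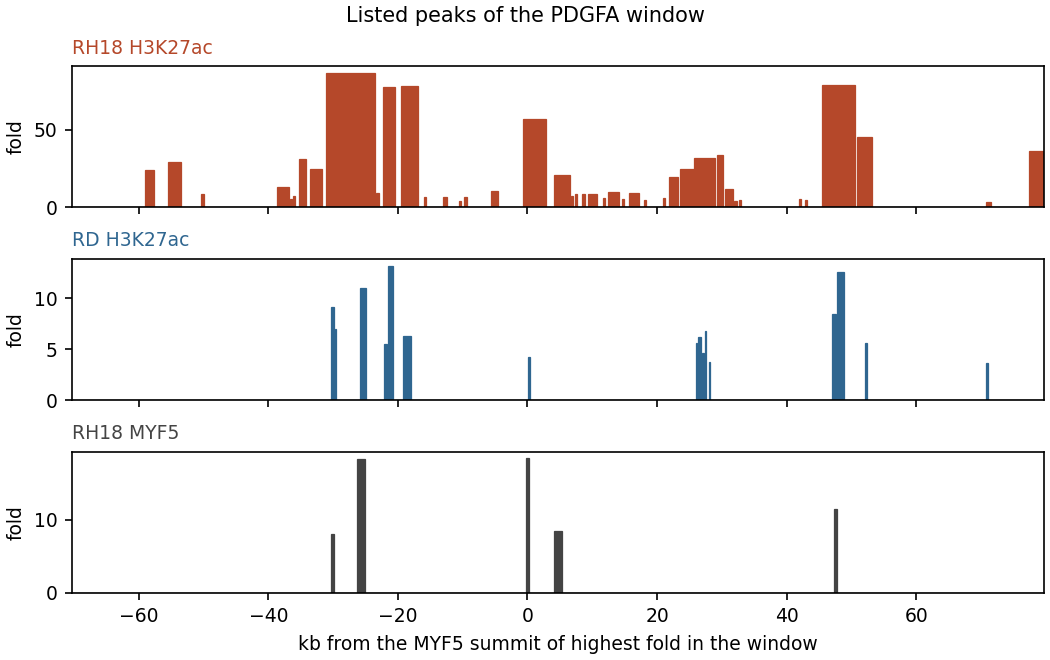
Peaks of the PDGFA window, with distance from the MYF5 summit of highest fold (kb) on the horizontal axis and deposited fold on the vertical axis, which has its own scale for each list. Bars span the width of a peak, and all 16 RD regions lie within RH18 regions, as do the summits of all 5 MYF5 peaks.

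MYF5 had 5 peaks in the PDGFA window, all with their summits inside RH18 H3K27ac regions. The peak of highest fold lay at 530146 to 530552 (fold 18.4, 138 tags, percentile 85), in an RH18 region of fold 57.2, and its summit was 157 bp from an RD region of fold 4.21. The peak at 503960 to 505257 (fold 18.3, 80 tags, percentile 84.7) was wider and lay in the widest RH18 region, with its summit also inside an RD region of fold 11.0. These were the MYF5 peaks of the window with the highest standing by fold.

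The third, at 577673 to 578057 (fold 11.5, percentile 52.7), had as many tags as the first, 138, over a background of 6.82 times the lowest of the MYF5 list. Its summit lay in the RH18 region of fold 78.9. In RD the same position fell in a gap, 24 bp from a region of fold 8.49 on one side and 196 bp from a region of fold 12.6 on the other. The peak at 500002 to 500523 (fold 8.07, 31 tags) had its summit inside regions of both lines, 8 bp from the RD summit. That at 534479 to 535655 (fold 8.44, 37 tags) lay inside an RH18 region of fold 20.7, and its summit was 4484 bp from the nearest RD region.

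PDGFB encodes the B chain, the cellular counterpart of the v-sis oncogene. Its window held 19 RH18 regions with folds of 6.17 to 70.8 (median 9.01) and 7 RD regions with folds of 5.35 to 12.6 (median 6.42). In RH18, 2 regions stood in the top 10% of the list and 14 of the 19 below its middle. The highest and widest region of RH18 (39567050 to 39574251, 7202 bp, fold 70.8, 272 tags, percentile 98.1) crossed the lower end of the window and took in 4 RD regions of the window. The next, at 39579549 to 39582251 (fold 46.8, 183 tags), was the highest without an RD counterpart and lay 6876 bp from the nearest. The third, at 39686725 to 39689659 (fold 30.7, 113 tags), was near the upper end.

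The RD region of highest fold in the PDGFB window lay at 39570006 to 39570677 (fold 12.6, 95 tags, percentile 79.7), inside the widest RH18 region. The next RD regions, at 39602948 to 39603231 (fold 11.5, 85 tags, percentile 75.0) and at 39603698 to 39604378 (fold 11.1, 84 tags, percentile 72.7), belonged to a group of 3 present in both lines. In the middle of this group the RH18 region (39602922 to 39603493, fold 8.79) stood at percentile 23.8 of its list and the RD region at percentile 75.0 of its own. In the uppermost pair the RH18 region (39603687 to 39604509, fold 11.9) stood at percentile 42.3 and the RD region at 72.7. In the lowermost pair the RH18 region (39601571 to 39601907, fold 10.8) stood at percentile 36 and the RD region (39601569 to 39601862, fold 5.35) at 15.8. The order of the lines by standing thus differed within the group. The summits of this group were 9 to 478 bp apart between the lines. Between 39622233 and 39651480 RH18 had 9 further regions, with folds of 6.17 to 16.9, and RD had none.

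The single MYF5 peak of the PDGFB window lay at 39572232 to 39572458 (fold 13.3, 46 tags, percentile 67.1), inside the widest RH18 region. In RD its summit sat in a gap, 113 bp above a region of fold 5.96 and 96 bp below a region of fold 6.42. The nearest MYF5 peak outside the window lay 1920 bp below its lower end (fold 9.76). That peak fell inside the same widest RH18 region, which crossed the window's end and held 2 MYF5 summits in all. The stretch that held the widest RH18 region spanned 15.2 kb and ranked 109 of 20111 in RH18, and the stretch at the same place in RD spanned 5.60 kb and ranked 2613 of 17620. With regions joined within 5 kb, a setting chosen after seeing the data, the RH18 rank was 70.

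At PDGFC it was RD that had more listed regions, and the locus had no MYF5 peak. The window of 310 kb held 4 RH18 regions (folds 11.9 to 38.5, 32 to 106 tags) and 10 RD regions (folds 5.27 to 16.2, 29 to 115 tags). Median widths were 386 bp in RH18 and 236 bp in RD. The widest of either line was an RH18 region of 1216 bp at 157891849 to 157893064 (fold 38.5, 106 tags, percentile 87.2). It overlapped the highest and widest RD region, at 157891571 to 157892312 (742 bp, fold 16.2, 115 tags, percentile 88.8), and their summits were 83 bp apart. By fold percentile the 2 libraries were therefore close at this region, while by tags the percentiles were 74.2 in RH18 and 68 in RD.

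The other region found in both lines lay at 157684096 to 157684444 in RH18 (fold 22.3, 61 tags, percentile 70.1) and at 157684184 to 157684416 in RD (fold 12.6, 72 tags, percentile 79.5), with summits 23 bp apart. By tags the order of the lines was reversed, with percentiles of 53.3 in RH18 and 40.6 in RD. The highest RH18 region without an RD counterpart lay at 157695447 to 157695868 (fold 38.1, 105 tags), 2568 bp from an RD region. In RD the highest region that RH18 lacked lay at 157920015 to 157920294 (fold 15.6, 90 tags, percentile 87.7), 26566 bp from the nearest RH18 region. Between 157866035 and 157890579 RD had a further 6 regions, with folds of 5.27 to 10.8 and tag percentiles of 0.834 to 31, where RH18 had none. Those starting at 157868179 and 157883734 had −log10 p-values by the authors of 6.95 and 6.41, below the RH18 list end of 7.09. Of the group, only those starting at 157876219 and 157889954 had a −log10 q-value of at least 10. At a −log10 q-value of at least 10 in both lists, 4 RH18 regions and 6 RD regions of the window were left. The nearest regions outside the window lay 20.6 kb below and 57.4 kb above it in RH18, and 36.1 kb below and 57.0 kb above it in RD.

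**Figure D3:**
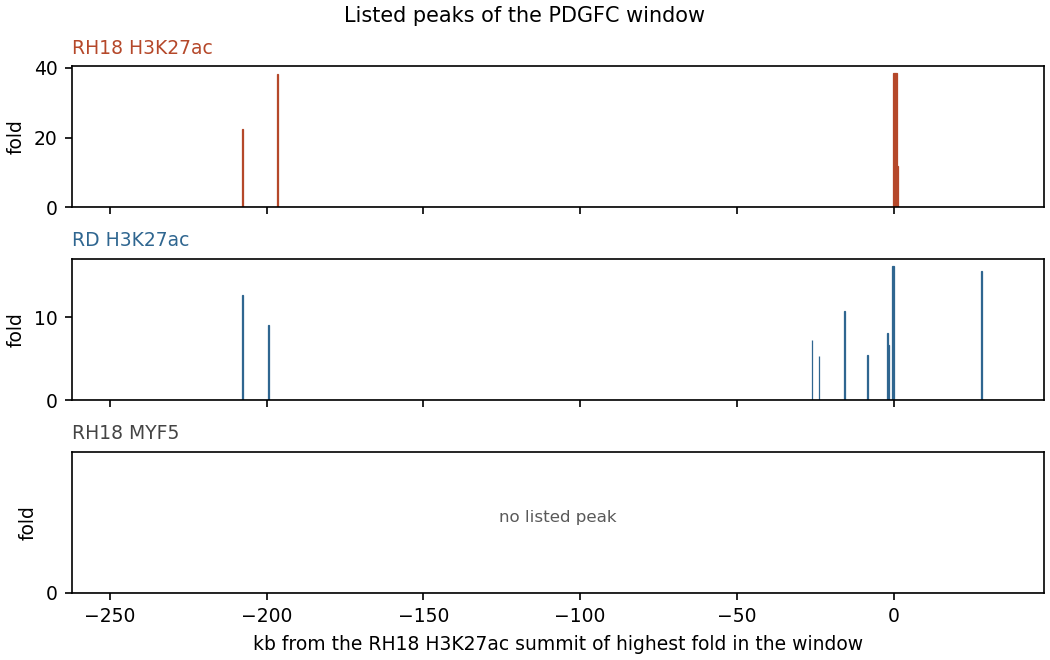
Peaks of the PDGFC window, with distance from the RH18 H3K27ac summit of highest fold (kb) on the horizontal axis and deposited fold on the vertical axis, which has its own scale for each list. RH18 has 4 regions and RD has 10, their highest regions lie at the same place, and no MYF5 peak is listed.

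PDGFRA had no listed peak in any of the 3 lists over its window of 170 kb. The nearest RH18 H3K27ac regions were 108767 bp below the window (fold 13.7) and 315073 bp above it (fold 9.02). The nearest RD regions were 109291 bp below (fold 3.21) and 1002544 bp above (fold 6.19), and the nearest MYF5 peaks 1216320 bp below and 440440 bp above. The stretch without a listed H3K27ac region thus measured 594 kb in RH18 and 1282 kb in RD, and took in the whole window in both. How often stretches of such length lack a listed region elsewhere in the genome was not worked out. The lists hold only peaks that passed the authors' threshold, so a signal below that threshold was not measured at this receptor.

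PDGFRB, the gene of the beta receptor, had the largest ratio of listed length between the lines among the loci with listed regions in both. The window held 16 RH18 regions, with folds of 7.25 to 100.2 (median 15.1) and 19 to 278 tags. It held 2 RD regions, with folds of 14.8 and 4.79 and with 94 and 49 tags. The RH18 region of highest fold, at 149522758 to 149524597 (1840 bp, fold 100.2, 278 tags), ranked 132 of 46408 in its list. Both RD regions lay inside it. The higher, at 149522788 to 149523838 (1051 bp, fold 14.8, percentile 86.1 by fold and 56.4 by tags), had its summit 543 bp from the RH18 summit. The other, at 149524151 to 149524319 (fold 4.79, percentile 9.98 by fold and 18.9 by tags), had its summit 503 bp from the RH18 summit.

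The second RH18 region of the PDGFRB window by fold was also the widest and the highest without an RD counterpart. It measured 6819 bp at 149515476 to 149522294 (fold 74.7, 268 tags, percentile 98.5) and ended 494 bp from the nearest RD region. The third, at 149536727 to 149540369 (3643 bp, fold 34.5, 95 tags), lay 12408 bp from any RD region. A further region at 149533223 to 149536150 had a fold of 29.8 and 142 tags. The 12 regions from 149509820 to 149543638 joined into a stretch of 33.8 kb, which ranked 43 of 20111 in RH18. The RD stretch at the same place measured 1.53 kb and ranked 3952 of 17620. The nearest RH18 regions outside the window lay 6.77 kb below (fold 9.76) and 8.49 kb above it (fold 7.25), and the nearest RD regions 59.0 kb below (fold 7.07) and 114 kb above it (fold 7.27).

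**Figure D4:**
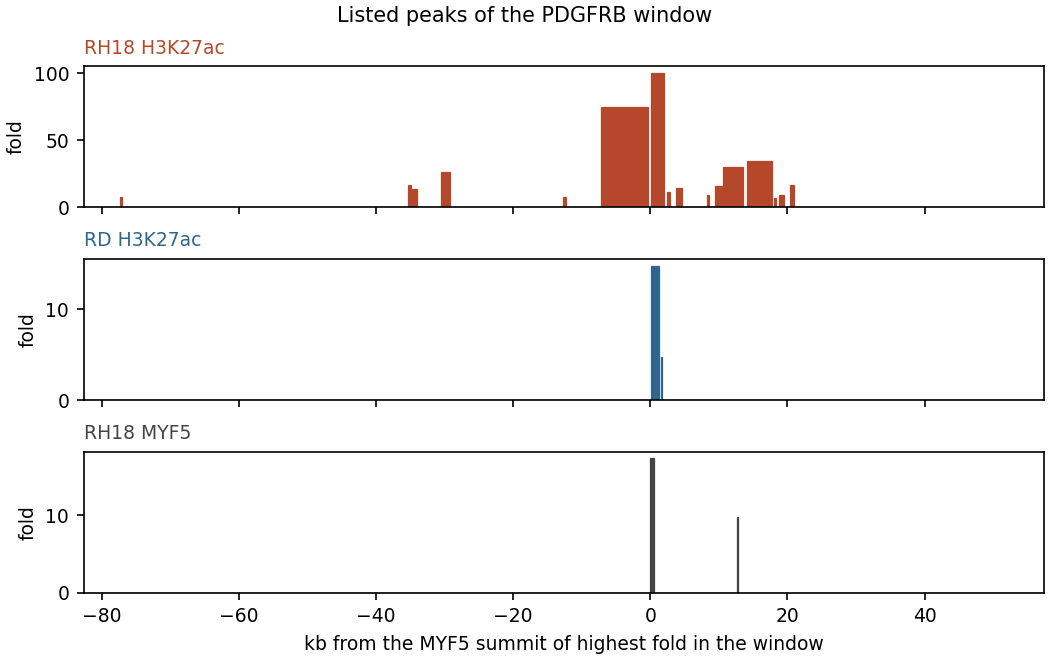
Peaks of the PDGFRB window, with distance from the MYF5 summit of highest fold (kb) on the horizontal axis and deposited fold on the vertical axis, which has its own scale for each list. RH18 has 16 regions with a fold of up to 100.2, RD has 2, both at the place of the highest RH18 region, and the MYF5 summit at 0 falls in the gap between the highest RH18 regions.

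MYF5 had 2 peaks in the PDGFRB window. The higher lay at 149522515 to 149523196 (682 bp, fold 17.4, 52 tags, percentile 82.8). Its summit fell between the highest RH18 regions, 330 bp above the end of the region of fold 74.7 and 134 bp below the start of the region of fold 100.2. It was 164 bp from the higher of the 2 RD regions, that of fold 14.8. The other MYF5 peak lay at 149535275 to 149535467 (193 bp, fold 9.80, 29 tags, percentile 35.9). Its summit lay inside the RH18 region of fold 29.8, 124 bp from the summit of that region, and was 11018 bp from the nearest RD region.

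Over all windows, 7 of the 8 MYF5 summits (87.5%, exact Clopper-Pearson 95% interval 47.3 to 99.7%) lay inside an RH18 H3K27ac region, beside 55.2% over the whole list, and 2 of 8 (25%, 3.19 to 65.1%) inside an RD region, beside 39.9%. Within 500 bp of a region lay all 8 in RH18 (72.1% of the list) and 6 in RD (62.9% of the list). Counting any overlap of the peak itself, 8 of 8 overlapped an RH18 region, beside 64.1% of the list, and 6 of 8 an RD region, beside 55.5%. Summits inside regions of RH18 and outside those of RD numbered 5 of 8 (62.5%, 24.5 to 91.5%), beside 21.7% of the list, and inside regions of both lines lay 2, beside 33.5%. Outside both lay 1, beside 38.4%, and none lay inside an RD region alone, beside 6.38%. With regions of the line ending within 500 bp on both sides, 1 summit sat in a gap in RH18 (4.81% of the list) and 2 in RD (10.6%). The 8 summits came from 1 library and from loci picked with these lists known, so nothing is read from the departures. No control immunoprecipitation was analysed here.

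Read from the acetylated regions, 6 of the 81 RH18 regions (7.41%, 2.77 to 15.4%) held a MYF5 summit, beside 12.0% of the list, and 2 of the 35 RD regions (5.71%, 0.7 to 19.2%) did, beside 9.71%. The RH18 regions with a summit were 4 at PDGFA, 1 at PDGFB and 1 at PDGFRB. At PDGFA and PDGFB they included the region of highest fold of the window. At PDGFRB the highest region had its MYF5 summit just outside, as described above. MYF5 peaks of the windows stood between percentiles 17.7 and 85 of their list by fold, and none was in its top 10%. By tags 2 of the 8 were in the top 10%, those of 138 tags at PDGFA, both at percentile 97.6.

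**Figure D5:**
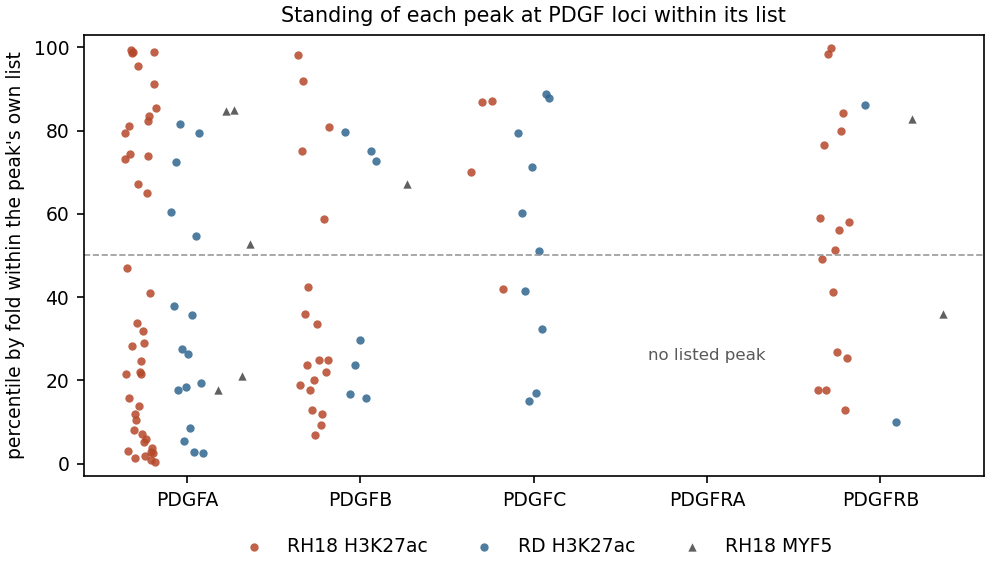
Percentile by fold of each peak within its own list (vertical axis) by locus, for RH18 H3K27ac, RD H3K27ac and RH18 MYF5, with the middle of each list as a dashed line. RH18 regions reach percentiles 99.3 at PDGFA and 99.7 at PDGFRB, RD regions stay at or below 88.8, and MYF5 peaks at or below 85.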

How the data were processed

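Results rest on 3 deposited peak lists, 1 for each ChIP library. The submitters' processing notes name BWA 0.7.10, MACS2 2.1.0 and hg19, without settings. In the deposited lists a peak carries a fold enrichment (a ratio over local background), a −log10 p-value and a −log10 q-value by the authors, and a summit position. The deposited score, a rescaled −log10 p-value, was not used further.

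Summit tags and background were recovered from the authors' fold and p-value by the formulas of MACS2, with a pseudocount of 1. Tags came out whole within 0.1 tag in 100.0% of RH18 H3K27ac, RD H3K27ac and MYF5 peaks. More than 1 solution existed for 7.60%, 45.3% and 18.5%, in that order. There the solution nearest a whole tag was taken, so wholeness was favoured by the choice. Peaks with 1 solution numbered 42880, 23593 and 9073, in that order. Of these 100% were whole, beside 20.0% by chance, with the worth of a tag fitted to the same peaks. On 2000 simulated peaks per list, written with the same formulas, 100.0% of tags were returned, which checks the code only. Total reads per library are not given in the sources used here.

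With 1 library per group no test was run. Shares carry exact Clopper-Pearson 95% intervals for counting error, which treat the peaks of a locus as independent. In each window every MYF5 peak was named, and in each H3K27ac list the 3 regions of highest fold, the widest, and the highest without an overlap in the other line. Other regions named, and those that mark the ends of a group, were chosen after their values were seen. Members, windows and lists were chosen with earlier results of these data known. The other pathway genes and promoter states planned need hg19 gene positions and were not analysed here, nor was a motif search under peaks. Intervals were from scipy 1.17.1 and figures from matplotlib 3.10.9, with pandas 2.3.3 and numpy 2.4.6 under Python 3.11.15.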

Additional observations from a re-analysis of the deposited data

How the results depend on the processing

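Of 127 alternatives run, 106 stayed within the interval of the share, or within 1.5 times the count or rank, and 21 moved. Some of the 106 could not move. Filtering or joining peaks cannot fill an empty window, as at PDGFRA in every list and at PDGFC for MYF5. Trimming the H3K27ac lists to equal length leaves MYF5 counts untouched. Shares of the 8 MYF5 summits had wide intervals, and that for summits inside RD regions spanned 3.19 to 65.1%. The tally therefore overstates how often a result was put to the test. Overlap of 50% of both regions gave 4.94% of RH18 regions and 11.4% of RD regions (25.6% and 27.5% of the whole lists). Any overlap of the MYF5 peak, or a summit within 500 bp, gave 100% in RH18 and 75.0% in RD. A −log10 q-value of at least 10 left 3 RD regions at PDGFB, 6 at PDGFC and 1 at PDGFRB. Windows widened by 50 kb held 8 MYF5 peaks at PDGFA, 36 RH18 regions, 15 RD regions and 6 MYF5 peaks at PDGFB, and 7 RH18 regions and 1 MYF5 peak at PDGFC, while PDGFRA still held none of any list. Peaks joined within 1000 bp gave 16 RH18 and 9 RD regions at PDGFA, 3 RD regions at PDGFB, and 6 RH18 regions and 1 RD region at PDGFRB. Joining within 5 kb, chosen after seeing the data, moved the rank at PDGFB to 70. The peak of highest fold also led its window in 10 of 11 cases by −log10 p-value, 9 by tags and 8 by fold times width. In 1 of these cases, MYF5 at PDGFB, the window held 1 peak, which leads by any measure. Tags were worked out from fold and p-value, and fold times width contains the fold, so these measures are not independent. The cause of these changes was not tested, beyond the construction of each setting. No paired analysis was possible because each group was 1 library and the values come from no test. The lists ended at different thresholds, and depth per library is unknown.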

Other observations

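Where the lines shared acetylated sequence, the summits of RD regions lay 30 to 3707 bp from those of the RH18 regions they overlapped at PDGFA (16 RD regions in 8 RH18 regions), 9 to 1389 bp at PDGFB (7 in 4), 23 and 83 bp at PDGFC (2 in 2), and 503 and 543 bp at PDGFRB (2 in 1). At 556071 to 559190 of the PDGFA window, 1 RH18 region of 3120 bp (fold 32.1, 230 tags) took in 5 separate RD regions with folds of 3.73 to 6.82 and 77 to 121 tags. The last example was chosen with its values in view.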
